A study of Mus musculus with 6 samples.

Results

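Lipocalin 2 (Lcn2), its transcriptional regulators Cebpb, Cebpd and Nfkbiz, and 6 further genes of innate defence and the acute phase (Saa3, Chil1, Ltf, Lrg1, Hp and Cp) were followed in mouse lung. They were selected by gene symbol, 10 of the 24054 gene rows of the table, and all 10 were found and passed the filter on low values. The set was drawn up with earlier results of the same comparison known. The lungs came from 6 female SCID mice, 3 per group. Mice of the Tsc1-null EV group had received, by tail vein, labeled CD9+CD63+CD81+ extracellular vesicles (EVs, membrane particles shed by cells) from Tsc1-null neural progenitors of E15.5 mouse embryos. Mice of the WT EV group had received EVs of the same kind from wild-type progenitors. At 48 h after the EVs, both groups were given ELT3 cells by vein, a rat line that serves as a model of lymphangioleiomyomatosis, and lungs were taken 72 h after the cells. SCID hosts lack mature B and T cells but keep neutrophils, macrophages and natural killer cells. The labelled genotype is that of the cells that made the EVs, not of the lungs. Lungs that got no EVs, or no ELT3 cells, were not analysed here. No source used here gives the ages of the mice.

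Lcn2 encodes a small secreted protein that captures the iron-carrying siderophores of bacteria. Its gene is a textbook target of NF-kB acting together with IkB-zeta, the nuclear cofactor encoded by Nfkbiz, and with the bZIP factors C/EBP-beta and C/EBP-delta, encoded by Cebpb and Cebpd. In lung, airway and alveolar epithelium and neutrophils are known sources of these defence proteins, and the same cytokines (IL-1, IL-17, TNF and IL-6) are known to induce several of them together.

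Values are TMM-normalized read counts, scaled by the authors for library size. A log2 fold is the mean log2(value + 1) of the Tsc1-null EV lungs less that of the WT EV lungs, with the standard error from limma. The libraries held 5101413 to 9358820 reads assigned to genes. A pair of libraries, Tsc1-null EV replicate 1 and WT EV replicate 2, differed from the remaining 4 and are called the libraries standing apart, with median correlations of 0.942 and 0.963 with the rest, against 0.980 to 0.983 elsewhere, and with the nuclear RNA Malat1 at 30060 and 15673, against 1609 to 2819. The log2 folds of the members, and the list medians that they move most, are also given without these 2 libraries. In whole lung, fewer cells of a type and less RNA per cell cannot be told apart, and reads of the rat cells cannot be told from mouse reads. At an adjusted p under 0.05, 0 of 14159 genes passed in limma (0%), so 0 of the 10 members did. Before adjustment 930 genes (6.57%) were under 0.05. With edgeR 0 genes passed (962 unadjusted), with DESeq2 11 (0.0774%, Lcn2 among them), with limma sample weights 1050 (7.42%, 6 of the members among them), and without the 2 libraries 25 (0.177%, Lcn2 among them). The comparison of Tsc1-null EV with WT EV lungs helped to choose the members, so their differences are given as a description and no test is read from them.

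Every Tsc1-null EV lung held more Lcn2, Chil1, Cp and Cebpb than any WT EV lung, with fitted folds of 1.52 to 2.71 on the value + 1 scale. The log2 folds of all 7 secreted members were positive (median 0.85). Of the 3 regulators, Cebpb alone stood clear between the groups, while Cebpd and Nfkbiz had similar means in both. Over all genes tested, 6.86% were higher without overlap, 6.22% lower without overlap and 13.1% either. Nothing is read from the 4 of 10 members against these shares, since the comparison helped to choose them. The median log2 fold was 0.61 over the 10 members (0.46 without the 2 libraries standing apart), 9 of them above 0, and -0.02 over all genes, 47.3% of them above 0.

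**Figure D1:**
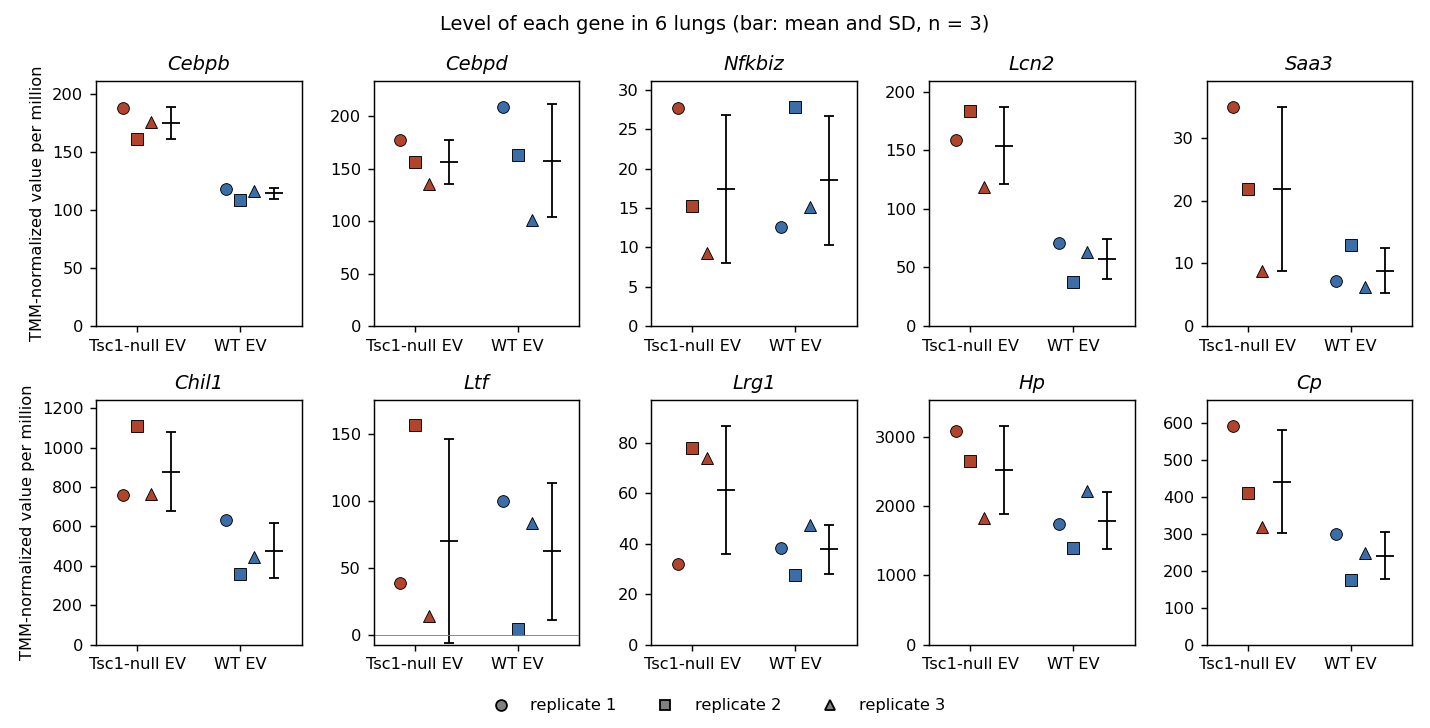
TMM-normalized value (vertical axis, linear) of each of the 10 genes in the 3 Tsc1-null EV lungs (red, left) and the 3 WT EV lungs (blue, right), with replicates 1, 2 and 3 as circle, square and triangle and the mean and SD as a bar. Cebpb, Lcn2, Chil1 and Cp show no overlap, while Ltf runs from 4.26 to 156.8 across both groups.

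Among the regulators, Cebpb, a bZIP factor of inflammation and of epithelial and myeloid differentiation, had the tightest values. It stood at 187.8, 160.7 and 175.4 in Tsc1-null EV lungs, against 117.6, 108.8 and 116.1 in WT EV lungs. The lowest Tsc1-null EV value was well above the highest WT EV value, and the highest value within a group was 1.17 and 1.08 times the lowest in the Tsc1-null EV and WT EV groups. The means were 174.6 ± 13.6 and 114.1 ± 4.72 (SD, n = 3 each), a log2 fold of 0.61 ± 0.14. The log2 fold was 0.52 without the 2 libraries standing apart and 0.55 to 0.67 with any 1 library left out.

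Cebpd, the C/EBP factor that is typically induced early and briefly by IL-6 and glucocorticoids, was at 177.4, 156.2 and 135.5 in Tsc1-null EV lungs, against 208.7, 163.6 and 101.2 in WT EV lungs. The WT EV group held both the highest and the lowest lung, and the log2 fold was 0.04 ± 0.25. Nfkbiz was at 27.7, 15.3 and 9.28 in Tsc1-null EV lungs, against 12.6, 27.8 and 15.1 in WT EV lungs (log2 fold -0.13 ± 0.40). Its highest value in each group was in the library standing apart, the same 2 libraries in which Malat1 was high. The part of that difference between libraries in the Nfkbiz values was not tested. Without these 2 libraries the log2 fold of Nfkbiz was -0.19 and that of Cebpd was 0.00.

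Of the other C/EBP genes, Cebpa, a factor of alveolar and myeloid maturation, was at 158.1 ± 14.1 in Tsc1-null EV and 134.9 ± 26.3 in WT EV lungs, and Cebpg, a partner without an activation domain, at 111.5 ± 7.60 and 119.9 ± 13.8. Ddit3, which encodes the stress factor CHOP, was at 20.7 ± 3.53 in Tsc1-null EV and 26.6 ± 8.73 in WT EV lungs. The groups overlapped for all 3. Cebpe, the factor of granulocyte maturation, had a mean of 0.0368 in Tsc1-null EV and 0.0818 in WT EV lungs and fell under the filter. Of the 5 family members tested, 0 passed in either direction, and Cebpb was the 1 that did not overlap.

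In mm10 (GRCm38, GENCODE M21), Lcn2 lies at chr2:32384633-32388252 on the minus strand, Cebpb at chr2:167688915-167690418 on the plus strand, Chil1 at chr1:134182176-134190181 on the plus strand and Cp at chr3:19957054-20009145 on the plus strand, all protein-coding genes whose values are totals over the gene. The sequence before a RefSeq transcription start is shown for these 4, the members whose groups did not overlap. The C/EBP factors of the set, and NF-kB, with which IkB-zeta acts, work through such DNA. The stretches begin 250 bases before a RefSeq start on GRCm38.p6 and are in gene orientation. Where a GENCODE untranslated region of the gene begins within those bases, the stretch ends just before it. Untranslated regions that begin farther upstream were not trimmed. Capitals mark TTNNGNAA, a loose C/EBP pattern, and a loose NF-kB pattern (GGG, any 5 bases, then CC), on either strand and allowing overlap.
Lcn2, chr2:32387798-32387989, minus strand: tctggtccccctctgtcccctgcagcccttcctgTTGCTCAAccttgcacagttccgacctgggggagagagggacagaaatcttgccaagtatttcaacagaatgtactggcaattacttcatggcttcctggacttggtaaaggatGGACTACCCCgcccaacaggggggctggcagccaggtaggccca
Cebpb, chr2:167688665-167688914, plus strand: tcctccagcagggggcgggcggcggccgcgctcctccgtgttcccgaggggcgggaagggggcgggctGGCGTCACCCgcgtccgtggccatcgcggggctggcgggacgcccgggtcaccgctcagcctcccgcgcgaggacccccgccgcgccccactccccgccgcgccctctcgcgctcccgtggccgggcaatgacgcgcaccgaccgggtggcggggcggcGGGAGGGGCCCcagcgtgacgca
Chil1, chr1:134181906-134182155, plus strand: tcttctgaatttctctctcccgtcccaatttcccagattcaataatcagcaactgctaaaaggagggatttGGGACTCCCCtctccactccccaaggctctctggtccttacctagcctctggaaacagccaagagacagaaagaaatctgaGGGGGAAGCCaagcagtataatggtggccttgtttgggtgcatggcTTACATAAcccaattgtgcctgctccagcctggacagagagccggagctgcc
Cp, chr3:19956804-19957053, plus strand: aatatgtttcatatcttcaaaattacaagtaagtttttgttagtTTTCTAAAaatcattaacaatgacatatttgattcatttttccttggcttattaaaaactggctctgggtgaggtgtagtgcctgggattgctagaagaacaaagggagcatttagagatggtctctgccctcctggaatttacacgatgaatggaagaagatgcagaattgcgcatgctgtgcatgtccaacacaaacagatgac
The Lcn2 stretch held 1 match to each pattern, the C/EBP pattern at bases -216 to -209 and the NF-kB pattern at -102 to -93 from the RefSeq start, both on the opposite strand. The Lcn2 stretch lies wholly within the gene as GENCODE marks it, and part of it is a coding exon of an alternative Lcn2 transcript there. The Chil1 stretch held 1 C/EBP and 2 NF-kB matches, Cebpb held 0 and 3 (2 of these overlap), and Cp held 1 and 0. Cp had another RefSeq start, whose stretch was the last 55 bases of the one printed and held 0 matches to either pattern. Such patterns are common: 36.8% of 32851 promoter windows of 250 bases held the C/EBP pattern and 45.8% the NF-kB pattern, and 31.4% and 35.7% at the 192 bases of Lcn2. Of the 10 members 7 had an entry in the promoter table, and Saa3, at 4 C/EBP and 0 NF-kB matches in 226 bases, had the most C/EBP matches of these. A match of letters describes the sequence only, and is not a bound site.

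With all 6 libraries Lcn2 had the highest fold of the set, but without WT EV replicate 2 its log2 fold was 1.17 and that of Saa3 1.38, and without Tsc1-null EV replicate 3 both were 1.61. It stood at 159.0, 183.6 and 118.4 in Tsc1-null EV lungs, against 70.4, 37.6 and 63.5 in WT EV lungs. The lowest Tsc1-null EV lung was above the highest WT EV lung, and the lowest value of all was in WT EV replicate 2. The means were 153.7 ± 32.9 and 57.2 ± 17.3 (SD, n = 3 each), a log2 fold of 1.44 ± 0.26. Without the 2 libraries standing apart it was 1.13, and with any 1 library left out it was 1.17 to 1.61. Lcn2 rested on 256 to 1703 recovered reads per library.

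Chil1 encodes a chitinase-like protein that binds chitin but does not cleave it, and is made by alveolar type 2 cells and macrophages. It was at 757.4, 1111 and 765.7 in Tsc1-null EV lungs, against 630.5, 357.7 and 443.9 in WT EV lungs. The groups did not overlap, and the nearest pair of lungs, Tsc1-null EV replicate 1 and WT EV replicate 1, were 757.4 and 630.5. The log2 fold was 0.89 ± 0.25, and 0.80 without the 2 libraries standing apart. Other genes of its family overlapped between the groups with all libraries. Chil3, a chitinase-like protein of alveolar macrophages, was at 10.0, 46.7 and 43.6 in Tsc1-null EV lungs, against 32.3, 30.3 and 29.9 in WT EV lungs. Chia1, the acidic mammalian chitinase, was at 58.7, 152.2 and 122.1 in Tsc1-null EV lungs, against 89.8, 69.1 and 77.6 in WT EV lungs. For both, Tsc1-null EV replicate 1, a library standing apart, lay below every WT EV lung. Replicates 2 and 3 of that group lay above every WT EV lung. Of the 5 chitinase-family genes tested, 0 passed in either direction and the median log2 fold was 0.22, or 0.52 without the 2 libraries.

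Cp encodes ceruloplasmin, a copper-carrying ferroxidase that loads iron onto transferrin. It was at 593.8, 412.1 and 319.2 in Tsc1-null EV lungs, against 300.5, 175.8 and 248.5 in WT EV lungs. The groups were apart by a narrow margin, 319.2 in Tsc1-null EV replicate 3 against 300.5 in WT EV replicate 1, and the highest and lowest lungs were the 2 libraries standing apart. The log2 fold was 0.85 ± 0.27 with all libraries and 0.41 without those 2. Hp, haptoglobin, which binds free haemoglobin, was at 3077, 2653 and 1821 in Tsc1-null EV lungs, against 1742, 1397 and 2217 in WT EV lungs. WT EV replicate 3 lay above Tsc1-null EV replicate 3, so the groups overlapped. The log2 fold of Hp was 0.49 ± 0.28, 0.32 without WT EV replicate 2 and 0.16 without the 2 libraries.

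Saa3 encodes the serum amyloid A that mice make outside the liver. It was at 34.9, 21.9 and 8.84 in Tsc1-null EV lungs, against 7.20, 12.9 and 6.29 in WT EV lungs. In a 50-base search, Saa3 transcripts shared words with Malat1 and 3 other genes, and Saa3, like Malat1, was highest in each group in the library standing apart; the part of shared sequence was not tested. Tsc1-null EV replicate 3 lay below WT EV replicate 2, and the log2 fold was 1.09 ± 0.45, ranging from 0.67 without Tsc1-null EV replicate 1 to 1.61 without Tsc1-null EV replicate 3, with 0.96 without the 2 libraries standing apart. Lrg1, a leucine-rich glycoprotein of endothelium, neutrophils and liver that modulates TGF-beta signalling, was at 32.1, 78.2 and 73.9 in Tsc1-null EV lungs, against 38.5, 27.8 and 47.3 in WT EV lungs. Here Tsc1-null EV replicate 1 was among the low lungs and the other 2 were above all WT EV lungs. The log2 fold of Lrg1 was 0.61 ± 0.34, 1.02 with Tsc1-null EV replicate 1 left out, 0.39 with replicate 2 of that group left out, and 0.82 when the pair standing apart was dropped. The summed level of the 14 endothelial markers was also lowest in that lung, at 2477, against 3694 and 4462 in its group and 3699 to 4900 in WT EV lungs, and its part in the Lrg1 value was not tested.

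Ltf, lactoferrin, an iron-binding protein of glandular secretions and neutrophil granules, varied most. It was at 39.1, 156.8 and 14.6 in Tsc1-null EV lungs, against 100, 4.26 and 83.3 in WT EV lungs. The highest lung was 36.8 times the lowest, and each group held both high and low lungs. The log2 fold of 0.38 ± 1.16 went to -0.90 without the 2 libraries standing apart, to -1.0 without WT EV replicate 2 and to -0.51 without Tsc1-null EV replicate 2, so that its direction depended on which lungs were kept. Bpifa1, a secreted defence protein of upper-airway epithelium, spanned a similarly wide range, at 1.40, 154.4 and 13.3 in Tsc1-null EV lungs, against 243.2, 10.4 and 465.6 in WT EV lungs. Both genes were low in replicate 3 of the Tsc1-null EV group and in replicate 2 of the WT EV group. The part of airway tissue sampled in these Ltf values was not tested.

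**Figure D2:**
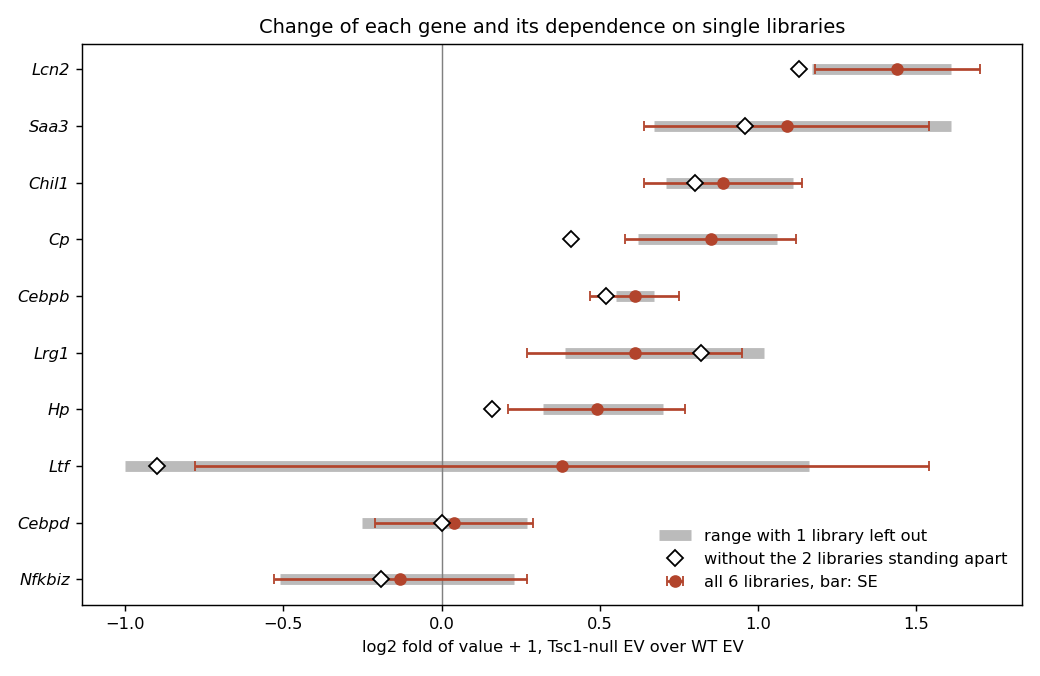
Log2 fold of each gene, as Tsc1-null EV less WT EV mean log2(value + 1) (horizontal axis), with all 6 libraries (red point, bar: SE), its range with any 1 library left out (grey) and its value without the 2 libraries standing apart (diamond). Lcn2, Saa3, Chil1, Cp, Cebpb, Lrg1 and Hp stay above 0 in all of these, while Ltf, Cebpd and Nfkbiz cross 0.

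Per kilobase of annotated exon, which allows levels to be compared between genes, Hp was the highest member, at 1567 ± 398 in Tsc1-null EV and 1112 ± 256 in WT EV lungs. Chil1 came next at 313 ± 71.9 and 170 ± 49.7, and then Cebpb at 116 ± 9.05 and 75.9 ± 3.14, and the ranges of these 3 genes did not overlap in either group. Lcn2 followed in Tsc1-null EV lungs at 58.6 ± 12.6, with Cp, Lrg1 and Cebpd after it at 46.2, 43.6 and 41.8. In WT EV lungs Lcn2 was at 21.8 ± 6.59, after Cebpd, Lrg1 and Cp at 42.1, 26.9 and 25.3. Neighbours among these 4 genes, and on to Ltf, overlapped in their ranges in both groups, so their order is not firm. Nfkbiz and Saa3 had the lowest means, at 3.47 and 8.39 in Tsc1-null EV and 3.68 and 3.38 in WT EV lungs. Their ranges overlapped that of Ltf, which ran from 4.23 to 45.4 in Tsc1-null EV and from 1.24 to 29 in WT EV lungs. That placing is therefore not firm either. The exon union counts all annotated transcripts, intron-retaining ones included, which lowers the value of genes with many of them.

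The 50-base words of 9 members occurred in transcripts of no other gene, and 3.57% of those of Saa3 did. The annotated span of another gene overlaps that of Cebpb (Tmem189), Cebpd (Spidr) and Cp (Hps3) on the opposite strand. Whether exons overlap was not examined. No source used here says whether counting used strand, so reads of such partners in any shared exons cannot be told apart. Tmem189 was at 41.9 ± 4.26 in Tsc1-null EV and 44.4 ± 6.11 in WT EV lungs, and Hps3 at 17.8 ± 3.43 and 18.4 ± 2.85.

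Whether the members moved together was examined by correlating log2(value + 1) over the 6 libraries, for all 45 pairs. Lcn2 went closest with Chil1 (Pearson's r = 0.95, exact permutation p = 0.00833; Spearman's rho = 0.94, exact permutation p = 0.0167; adjusted p = 0.188 and 0.25 over 45 pairs). The pair Lcn2 and Cp followed (r = 0.91, exact permutation p = 0.0125; rho = 0.94, exact permutation p = 0.0167; adjusted p = 0.188 and 0.25). For Lcn2 and Cebpb r was 0.90 (exact permutation p = 0.0375; rho = 0.83, exact permutation p = 0.0583; adjusted p = 0.337 and 0.438). For Lcn2 and Hp r was 0.82 (exact permutation p = 0.0528; rho = 0.77, exact permutation p = 0.103; adjusted p = 0.391 and 0.514). Adjusted over the 45, no pair passed (smallest adjusted p = 0.188), with 5 pairs at an unadjusted p under 0.05 for r. With 720 orders of the libraries and 45 pairs, a lone pair could not reach an adjusted p under 0.05 whatever its values. That no pair passed is therefore not read as a lack of correlation. Without the 2 libraries farthest from the median of Lcn2, which were Tsc1-null EV replicate 2 and WT EV replicate 2, r was 0.84, 0.89, 0.98 and 0.59 for Chil1, Cp, Cebpb and Hp.

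These correlations contain the difference between the groups, which had helped to choose the genes. The deviations from the group means do not, and were correlated for the same pairs, with values permuted within groups (36 orders, smallest possible p = 0.0278, two-sided). Lcn2 then went with Ltf (r = 0.98, exact permutation p = 0.0278, adjusted p = 0.865), Chil1 (r = 0.83, exact permutation p = 0.167), Cp (r = 0.78, exact permutation p = 0.139) and Hp (r = 0.76, exact permutation p = 0.167). With Cebpb it was 0.20 (exact permutation p = 0.667), against 0.90 over the undivided libraries. In the Tsc1-null EV group replicate 2 had the most Lcn2 and the least Cebpb, while in the WT EV group replicate 1 had the most and replicate 2 the least of both. Nfkbiz and Saa3 had r = 0.95 between deviations (exact permutation p = 0.0556), and both were highest in each group in the library standing apart. For Nfkbiz with Lcn2 r was -0.23 between deviations (exact permutation p = 0.667) and -0.20 over the 6 libraries (exact permutation p = 0.657; rho = -0.14, exact permutation p = 0.803). Over the 45 pairs the smallest adjusted p in this measure was 0.865. With 36 orders the design could hardly give an adjusted p under 0.05, so that value says nothing on whether pairs go together within groups.

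**Figure D3:**
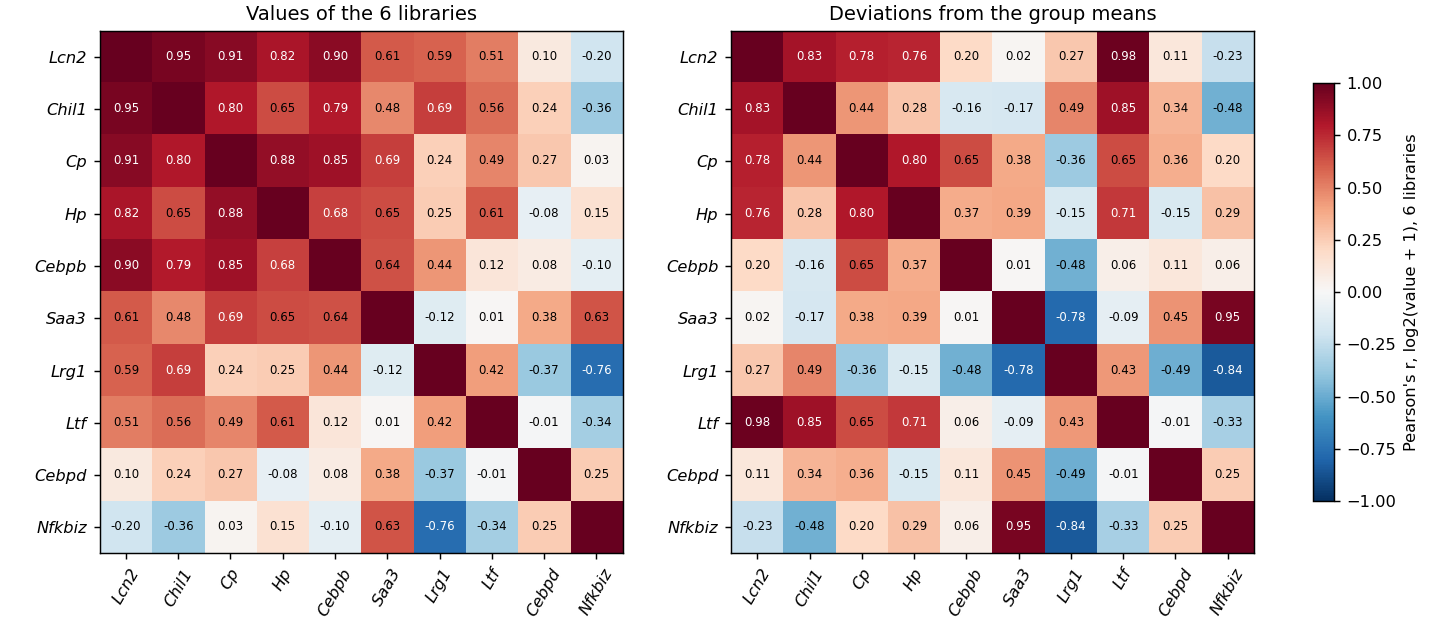
Pearson's r of log2(value + 1) between the 10 genes over the 6 libraries (left) and between their deviations from the group means (right), on a colour scale from -1 (blue) to 1 (red). Cebpb and Lcn2 are at 0.90 on the left and 0.20 on the right, and Ltf and Lcn2 at 0.51 and 0.98.

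Among 11167 other genes with a mean of at least 5, those whose values followed Lcn2 most closely over the 6 libraries included Hsd17b4, Nfil3, Tmc4, Arap1, Sdc1, Cand1 and Ldha, with r from 0.993 to 0.980. Hsd17b4, an enzyme of peroxisomal fatty acid oxidation, was at 137.3, 148.9 and 128.9 in Tsc1-null EV lungs, against 113.1, 90.4 and 110.3 in WT EV lungs. Nfil3, a bZIP repressor, was at 10.6, 12.3 and 8.73 in Tsc1-null EV lungs, against 6.34, 3.97 and 6.54 in WT EV lungs. Sdc1, the epithelial proteoglycan syndecan 1, was at 300.9 ± 25.0 in Tsc1-null EV and 212.0 ± 38.3 in WT EV lungs. The members themselves ranked far lower in that order: Chil1 was at place 61, Cp at 177, Cebpb at 224, Hp at 614, Saa3 at 1887, Lrg1 at 1959, Ltf at 2440, Cebpd at 4776 and Nfkbiz at 6660. The 4 genes most like Cebpb were Slc12a7, a potassium-chloride cotransporter, Pck2, the mitochondrial PEP carboxykinase, Irak2, a kinase of IL-1 receptor signalling, and Ugt1a6a, with r from 0.994 to 0.988. Irak2 was at 40.9, 36.8 and 39.1 in Tsc1-null EV lungs, against 32.1, 31.6 and 32.9 in WT EV lungs. The 4 most like Nfkbiz, Sap25, Plekhg3, Dyrk2 and Commd2 (r from 0.994 to 0.989), were likewise highest in the 2 libraries standing apart. With 6 libraries and this many genes, such likeness is a description of these lungs.

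The wider pathway was read from 9 lists of related genes, none of which held a gene that passed limma in either direction. Of the 18 NF-kB and IkB family genes tested, 7 had a log2 fold above 0 and 11 did not, with a median of -0.09. Nfkbia, the feedback inhibitor that NF-kB itself induces, was at 303.8 ± 98.3 in Tsc1-null EV and 330.1 ± 72.0 in WT EV lungs, and Tnfaip3, the ubiquitin-editing inhibitor A20, at 18.4 ± 2.03 and 21.3 ± 2.55. Bcl3, an atypical nuclear IkB protein related to IkB-zeta, was the 1 gene of this list without overlap, at 20.4, 23.7 and 18.9 in Tsc1-null EV lungs, against 18.2, 18.8 and 16.4 in WT EV lungs. Of 14 tested genes of the IL-6 and STAT3 axis, 4 were above 0 and the median was -0.07. Stat3, the transcription factor of this axis, was at 204.7, 234.1 and 208.2 in Tsc1-null EV lungs, against 170.6, 198.9 and 182.9 in WT EV lungs, all 3 higher. Its feedback inhibitor Socs3 overlapped at 31.3 ± 6.06 and 26.4 ± 2.08, and the receptor Lifr was lower in all 3 Tsc1-null EV lungs, at 120.9 ± 4.89 against 155.1 ± 12.2 in WT EV lungs.

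Of 20 tested genes of the IL-1, IL-17 and TNF axis, 11 were above 0 and the median was 0.02. Il1rn, the secreted antagonist of the IL-1 receptor, was at 6.82, 7.66 and 8.29 in Tsc1-null EV lungs, against 5.73, 3.82 and 4.57 in WT EV lungs, without overlap. Ccl20, an epithelial chemokine, was at 9.02, 3.34 and 1.22 in Tsc1-null EV lungs, against 1.10, 1.47 and 1.23 in WT EV lungs, so that its difference lay in 2 of the lungs. Il17a was at 0 in every library, and 7 of the 27 genes of this list had a mean under 1. Among 17 tested acute-phase genes outside the set, 12 were above 0, with a median of 0.22, or 0.36 without the 2 libraries standing apart. Lbp, which presents bacterial lipopolysaccharide to CD14, was at 91.8, 117.3 and 100.7 in Tsc1-null EV lungs, against 83.1, 67.9 and 83.2 in WT EV lungs. Cd14 was at 62.0 ± 21.3 and Steap4, a metalloreductase, at 45.6 ± 12.7 in Tsc1-null EV lungs, against 33.7 ± 11.6 and 28.8 ± 4.43 in WT EV lungs, both with overlap. Complement C3 was at 698.8 ± 227.4 in Tsc1-null EV and 806.3 ± 197.0 in WT EV lungs.

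Iron handling, in which Lcn2, Ltf, Hp and Cp act, had 9 of 19 genes above 0 and a median of -0.05, or 0.15 without the 2 libraries. Trf, transferrin, was at 774.6, 483.0 and 480.4 in Tsc1-null EV lungs, against 404.3, 318.9 and 385.3 in WT EV lungs, and Slc11a2, the iron importer DMT1, at 66.8 ± 20.3 against 43.5 ± 2.25, both without overlap. Ncoa4, the receptor that delivers ferritin to autophagy, was lower in all 3, at 102.6 ± 20.1 in Tsc1-null EV and 154.8 ± 27.5 in WT EV lungs. Airway defence secretions, a list that includes Lcn2 and Ltf, had 17 of 19 genes above 0 and a median of 0.41. Pigr, the receptor that carries IgA across epithelium, was at 720.9, 335.3 and 199.0 in Tsc1-null EV lungs, against 195.3, 143.9 and 197.8 in WT EV lungs. That gap came down to 199.0 against 197.8 at its narrowest. Muc1, a membrane mucin, was at 409.0 ± 68.1 in Tsc1-null EV and 273.0 ± 69.0 in WT EV lungs. Glucocorticoid-responsive genes, listed because glucocorticoids induce C/EBP factors, had 10 of 15 above 0 and a median of 0.25, and -0.10 without Tsc1-null EV replicate 3. Cdkn1a was at 175.3 ± 36.2 in Tsc1-null EV and 121.6 ± 7.05 in WT EV lungs, and the receptor gene Nr3c1 at 179.3 ± 5.86 and 240.4 ± 45.8.

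**Figure D4:**
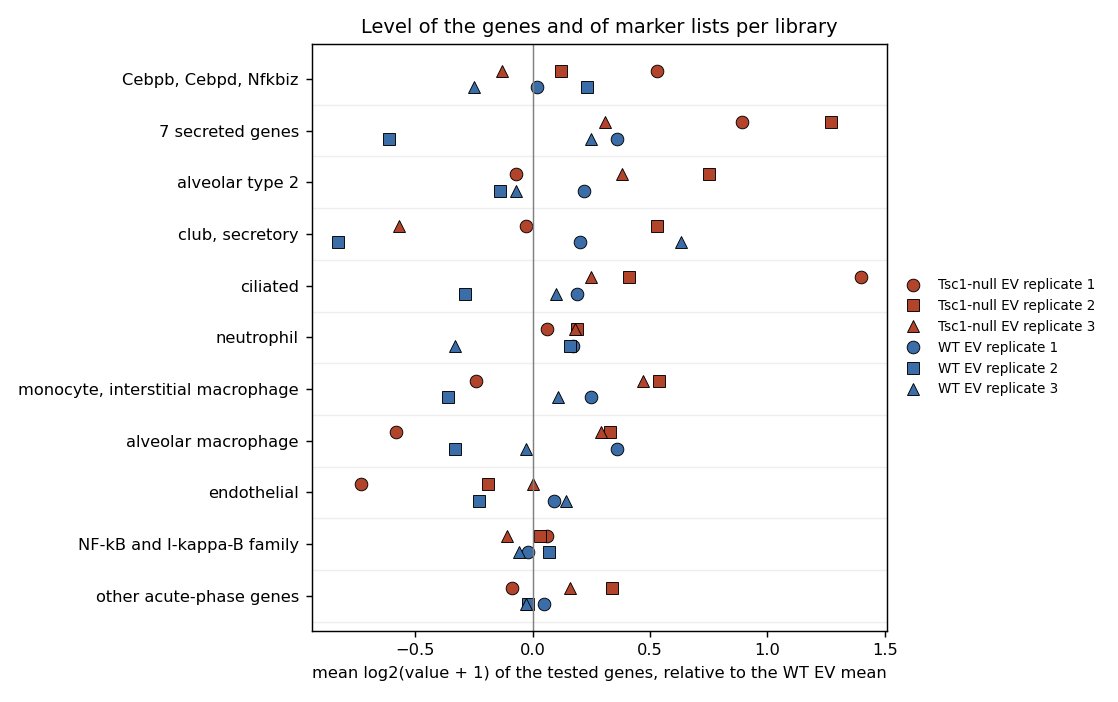
Mean log2(value + 1) of the tested genes of each list, relative to the WT EV mean (horizontal axis), in the 3 Tsc1-null EV (red) and 3 WT EV (blue) libraries. The 7 secreted genes run from 0.31 to 1.27 in Tsc1-null EV and from -0.61 to 0.36 in WT EV libraries, and the ciliated markers stand at 1.40 in Tsc1-null EV replicate 1.

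Markers of cells that make these proteins were set beside them. The mean level of the 7 secreted members was 0.89, 1.27 and 0.31 above the WT EV mean in Tsc1-null EV replicates 1, 2 and 3, and 0.36, -0.61 and 0.25 in WT EV replicates 1, 2 and 3, so the groups overlapped. Alveolar type 2 markers had 13 of 14 above 0 and a median of 0.39. The median was 0.23 without Tsc1-null EV replicate 2, 0.57 without replicate 1 of that group and 0.51 without both libraries standing apart. These markers were at -0.07, 0.75 and 0.38 in Tsc1-null EV libraries, against 0.22, -0.14 and -0.07 in WT EV libraries. Their summed values ran from 24685 to 47701 in Tsc1-null EV and from 26376 to 34771 in WT EV lungs. Abca3, the surfactant lipid transporter, was at 282.0 ± 60.2 in Tsc1-null EV and 178.7 ± 20.2 in WT EV lungs. Club and secretory markers, 7 of 9 above 0 with a median of 0.38, were lowest in WT EV replicate 2 at -0.83, which was also the library with the least Lcn2, Chil1, Hp, Cp, Lrg1 and Ltf. Their median was 0.11 without the 2 libraries standing apart and 0.23 without Tsc1-null EV replicate 1. The mean levels of club and secretory markers overlapped, at -0.03, 0.53 and -0.57 in Tsc1-null EV replicates 1, 2 and 3, against 0.20, -0.83 and 0.63 in WT EV replicates 1, 2 and 3. Their summed values were 75746 to 114614 in Tsc1-null EV and 57300 to 82400 in WT EV lungs. Scgb1a1 alone made up most of these sums, at 61601 to 91441 in Tsc1-null EV and 48294 to 68246 in WT EV lungs. Ciliated markers, 9 of 9 above 0 with a median of 0.65, stood at 1.40 in Tsc1-null EV replicate 1, where Cp, Hp, Saa3 and Cebpb were also highest, and at 0.41 and 0.25 in the other 2. Their median was 0.39 without that library and 0.19 without both libraries standing apart. The ciliated markers ran from -0.29 to 0.19 in WT EV libraries, with summed values of 1024 to 2053 in Tsc1-null EV and 773.5 to 1063 in WT EV lungs. The part of these epithelial differences in the members' values was not tested.

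Neutrophils store Lcn2 and Ltf in their granules. Of 11 tested neutrophil markers 5 were above 0, and the median was 0.00, or 0.25 when both libraries standing apart were dropped. With any 1 library left out the median lay between -0.18 and 0.31, so its direction was not firm. The summed level was 169.7 to 254.8 in Tsc1-null EV and 126.0 to 182.1 in WT EV lungs. Hdc, histidine decarboxylase, which mast cells and basophils also make, held a large part of that sum, at 151.0, 119.3 and 81.5 in Tsc1-null EV lungs, against 87.3, 55.1 and 63.5 in WT EV lungs. Without Hdc, left out after its values were seen, the sum was 88.2 to 103.8 in Tsc1-null EV and 62.4 to 107.4 in WT EV lungs. The groups overlapped with and without Hdc. The sum without it was highest in each group in the library standing apart, but a sum follows its most abundant markers. The mean log2 level of the 11 tested markers, Hdc included, did not have that order. It was 0.06, 0.19 and 0.18 in Tsc1-null EV replicates 1, 2 and 3, against 0.17, 0.16 and -0.33 in WT EV replicates 1, 2 and 3. A further 8 of the 19 measured markers had a mean under 1, with the granule genes Elane and Fcnb at 0 in every library. S100a9, an abundant neutrophil protein, was at 22.1, 27.3 and 26.2 in Tsc1-null EV lungs, against 28.8, 19.0 and 14.9 in WT EV lungs. Retnlg was at 4.40 ± 0.581 in Tsc1-null EV and 2.65 ± 0.483 in WT EV lungs, without overlap. Monocyte and interstitial macrophage markers had 9 of 11 above 0 and a median of 0.21 (0.62 without Tsc1-null EV replicate 1, 0.07 without replicate 2, 0.44 without both libraries standing apart), with summed values of 1810 to 4722 in Tsc1-null EV and 2432 to 3212 in WT EV lungs. Alveolar macrophage markers had 6 of 11 above 0, a median of 0.12 and summed values of 358.4 to 608.1 in Tsc1-null EV and 425.8 to 709.4 in WT EV lungs. That median ran from -0.08 to 0.34 with 1 library left out, so its direction depended on the lungs kept. Endothelial markers had 1 of 12 above 0 and a median of -0.33, which came to -0.20 when both libraries standing apart were dropped and to -0.08 without Tsc1-null EV replicate 1. Of 8 hepatocyte markers, 7 had a mean under 1 and Apoa2 was at 0 in every library. Hp, Cp and Lrg1 are genes also made in liver. Cyp2e1 was the 1 tested marker, at 13.3 ± 6.96 in Tsc1-null EV and 31.6 ± 25.9 in WT EV lungs.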

How the data were processed

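RNA from 6 lungs was sequenced as paired-end Illumina reads, per the labels' protocols. A single table with 24054 genes was deposited, holding a TMM-normalized signal, as its name says. The submitters' processing notes list Bowtie2 2.1.0, RSEM 1.2.15, edgeR and mm10 with no roles. Annotation and strand setting: not given in the sources used here. Dividing each column by its smallest step gave whole reads (100% of values, tolerance 0.001), from 5101413 to 9358820 a library. Replicates differed by far more than sampling noise (chi-square over its degrees of freedom 9.21 to 58.55), so each was counted once. Each library is taken as 1 mouse; no batch is given, and the label numbers run 1351 to 1353 in the Tsc1-null EV and 1348 to 1350 in the WT EV group, so handling order and group cannot be told apart.

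Genes with a mean of at least 1 (14159) were compared as log2(value + 1) with limma 3.58.1 in R 4.3.3 (trend, two-sided, Benjamini-Hochberg, threshold 0.05). This scale understates folds of low genes. Alternatives were pseudocounts, filters, scalings, no trend, robust shrinkage, sample weights, edgeR 4.0.16 (quasi-likelihood) and DESeq2 1.42.0 on the recovered reads, and each library left out. Leaving out both libraries standing apart was chosen after seeing the data. Correlations used exact permutations in Python 3.11.15, with ranks and the Benjamini-Hochberg adjustment from SciPy 1.17.1. The members, lists and tests were chosen with earlier results of these data known. Named genes are the members, up to 4 genes per list with the smallest unadjusted p and its highest-expressed gene, any gene of the C/EBP, NF-kB and chitinase lists, and the genes most like Lcn2 (8), Cebpb (4) and Nfkbiz (4) by r. Of these, 1 gene is not reported here. Genes at 0 in every library (Il17a, Elane, Fcnb, Apoa2) and the genes overlapping members on the other strand were named after their values were seen. The limma step was tested on simulated data. Sequences are from RefSeq (GRCm38.p6) and gene models from GENCODE M21.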

Additional observations from a re-analysis of the deposited data

How the results depend on the processing

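Over the alternatives run, 450 values were rated as unchanged, 36 as moved and 3 correlations changed sign. Log2 folds and list medians were rated against the spread of their libraries. No such spread was used for counts and correlations. A correlation that kept its sign could count as unchanged after a large move, as r of Lcn2 with Cebpb did. It was 0.90 over the 6 libraries and 0.20 between deviations from the group means. The cause was not tested unless named. The number of genes passing was 0 in limma, 1050 with sample weights, 11 with DESeq2, 25 without both libraries standing apart, and 0 to 2 with 1 library left out (2 without Tsc1-null EV replicate 1). With sample weights the log2 fold of Cebpb was 0.50, and without both libraries that of Cp was 0.41. List medians with sample weights were 0.00 for the NF-kB and IkB family, 0.08 for the IL-1, IL-17 and TNF axis, 0.46 for other acute-phase genes, 0.12 for iron handling, 0.37 for neutrophil markers and 0.73 for alveolar type 2 markers. Without both libraries they were 0.09 for the IL-6 and STAT3 axis, 0.12 for the IL-1, IL-17 and TNF axis, 0.36 for other acute-phase genes, 0.15 for iron handling and 0.52 for the chitinase family. A pseudocount of 0.1 gave 0.00 for the IL-1, IL-17 and TNF axis, and DESeq2 gave 0.35 for other acute-phase genes. With 1 library left out, medians ranged from -0.16 to 0.27 for the C/EBP family, -0.10 to 0.00 for the NF-kB and IkB family, -0.01 to 0.09 for the IL-1, IL-17 and TNF axis, 0.18 to 0.35 for other acute-phase genes, -0.12 to 0.20 for iron handling, 0.11 to 0.54 for the chitinase family, -0.10 to 0.33 for glucocorticoid-responsive genes and -0.18 to 0.31 for neutrophil markers. Without the 2 libraries farthest from the median of Lcn2, its r was 0.45 with Nfkbiz, -0.71 with Ltf and -0.08 with Lrg1, from 4 libraries. No paired analysis was possible because the labels give the groups no shared replicate numbers. The number of lungs, 3 a group, limits all values, and read depth limits the low ones (29 reads for Ltf in WT EV replicate 2).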
